A study of Caenorhabditis elegans with 2 samples.

Results

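The genes described here encode the proteasome of Caenorhabditis elegans and CDC-48 with its UFD-1 and NPL-4 cofactors. They were selected by name as 38 genes, 14 of the core particle, 10 of the base and 9 of the lid of the regulatory particle, and 5 of the CDC-48 complex, of 19973 protein-coding nuclear genes. All 38 were found in the annotation, and none is on X. Each gene was described by the ChIP-seq peak summits that lay from 1000 bp upstream to 200 bp downstream of its annotated start, the promoter window. The peaks come from whole hermaphrodite larvae of strain OP522, whose integrated transgene wgIs522 expresses the homeodomain protein DSC-1, tagged at its C terminus with GFP and FLAG, in animals that carry unc-119(tm4063) III; the promoter of the transgene is not stated. Larvae at the first stage (L1) were taken 6 hours after synchronization by starvation of bleached embryos, and the submitters' description gives an anti-GFP antibody for the precipitation, whereas their antibody field reads dsc-1. Which antibody was used could not be settled from the labels, so the peaks may mark the tagged protein alone or DSC-1 as a whole. There was 1 group with 2 biological replicates. Whole larvae mix all tissues. The control named by the submitters was not analysed here, and whether a peak depends on the tagged protein was not tested.

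The proteasome degrades proteins that carry ubiquitin chains. Its core particle is a barrel of outer alpha rings, encoded by pas genes, which gate the entrance, and inner beta rings, encoded by pbs genes, which hold the proteolytic sites. The base of the regulatory particle, with its RPT ATPases, unfolds and threads the substrate, and the lid removes its ubiquitin. CDC-48 is an ATPase that extracts ubiquitinated proteins from complexes and membranes before degradation, and the UFD-1 and NPL-4 pair brings it those substrates. In C. elegans, the transcription factor SKN-1 raises expression of proteasome genes when proteasome activity is impaired. DSC-1 has a homeodomain of the paired-like class and is known for its role in the defecation motor program.

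The strongest member peak was that of cdc-48.1. Its sequence is shown with those of rpn-3, pbs-1 and rpn-2, the strongest summits of the lid, core and base whose printed sequence holds no annotated exon, and with that of rpn-12, whose summit is shared with the shuttle factor gene rad-23. Each runs from 50 bp before to 50 bp after the summit on WBcel235 (ce11), as in RefSeq, and is written on the strand of the gene. The intervals are chrII:10563518-10563618 (minus strand) for cdc-48.1, chrIII:8447103-8447203 (plus) for rpn-3, chrIV:1709897-1709997 (minus) for pbs-1, chrIII:6198788-6198888 (plus) for rpn-2 and chrII:11652926-11653026 (plus) for rpn-12. Capitals mark the homeodomain core word TAAT and the SKN-1 words ATCAT and GTCAT on either strand, with overlapping matches joined.
cdc-48.1: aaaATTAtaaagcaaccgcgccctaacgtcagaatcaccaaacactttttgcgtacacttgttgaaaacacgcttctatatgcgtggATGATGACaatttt
rpn-3: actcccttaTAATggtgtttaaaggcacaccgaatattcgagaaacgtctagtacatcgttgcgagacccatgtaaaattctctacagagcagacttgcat
pbs-1: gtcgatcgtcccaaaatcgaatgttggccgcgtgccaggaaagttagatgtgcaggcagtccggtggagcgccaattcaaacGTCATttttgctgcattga
rpn-2: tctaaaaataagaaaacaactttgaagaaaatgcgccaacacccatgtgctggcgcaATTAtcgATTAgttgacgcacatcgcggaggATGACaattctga
rpn-12: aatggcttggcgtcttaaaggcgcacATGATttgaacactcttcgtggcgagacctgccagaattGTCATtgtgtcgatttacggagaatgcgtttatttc

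A promoter summit was present at 19 of the 38 genes, or 50% (exact Clopper-Pearson 95% interval 33.4 to 66.6), in the authors' list of 6283 pooled peaks kept by their cut on the irreproducible discovery rate (IDR), a measure of how well replicate ranks match. Among all protein-coding genes the share was 14.7%, and among autosomal ones 14.6%. By module the counts were 7 of 14 core genes (50%, 23 to 77), 5 of 10 base genes (50%, 18.7 to 81.3) and 5 of 9 lid genes (55.6%, 21.2 to 86.3). It was 2 of 5 for the CDC-48 genes (40%, 5.27 to 85.3). Their interval spans the shares of the other modules and also the 14.7% of all protein-coding genes. The intervals cover counting error only, and no set test was made. The members were chosen with earlier results of these data known, which the intervals do not cover. The share and the background moved together with the peaks counted: the members had 26.3% with the stronger 50% of IDR peaks, where all genes had 8.6%, and they had 68.4% with all pooled peaks before the threshold, where all genes had 33.3%.

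**Figure D1:**
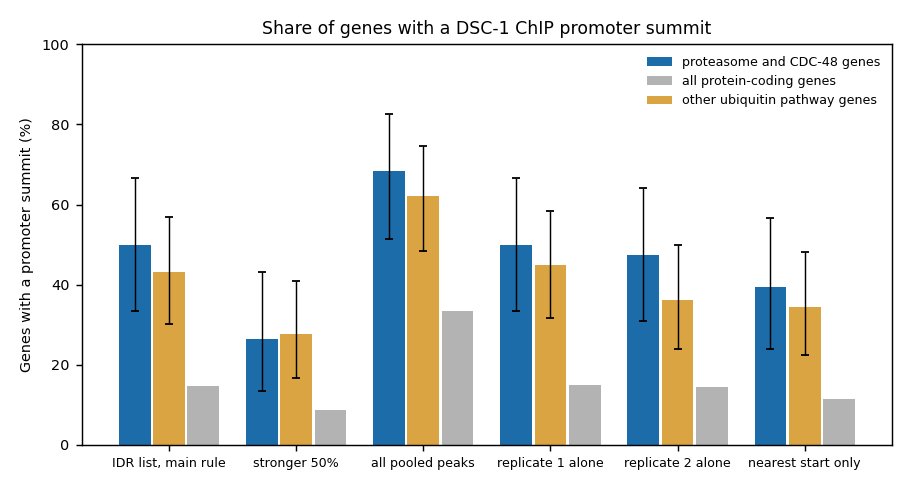
Share of genes with a promoter summit, in percent, for the 38 proteasome and CDC-48 genes, 58 other ubiquitin pathway genes and all 19973 protein-coding genes, under 6 ways of counting. Both gene lists were chosen with earlier results of these data known. The bars of a single replicate use its 6283 strongest peaks, and the nearest start is that of a protein-coding gene. Error bars are exact 95% intervals over genes; the member bars run from 26.3% to 68.4% and the bars of all genes from 8.6% to 33.3%.

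Of the core genes, 3 of 7 alpha ring genes and 4 of 7 beta ring genes had a summit. The strongest were at pas-4 (rank 1668 of the IDR list by the authors' signal, 141 bp upstream) and pbs-1 (rank 1716, 202 bp upstream), and pbs-1 encodes a beta subunit of the type that carries the caspase-like site in other eukaryotes. At pas-4 the rank was 1773 in replicate 1 and 1652 in replicate 2, and at pbs-1 it was 1881 and 1619. Both genes stood at like ranks in both replicates. The summit at pas-4 lay within the noncoding RNA gene C36B1.16. The summit at pas-5 (rank 1910, 930 bp upstream) lay inside the small nucleolar RNA gene F25H2.15, and had rank 2636 in replicate 1 and 1598 in replicate 2. Which of these genes that peak belongs to was not tested. At pas-1 the summit (rank 3651, 913 bp upstream) was nearer to the start of rpoa-12, an RNA polymerase I subunit gene on the same strand whose end lies 106 bp before pas-1. The summits at pbs-7 (rank 3744), pbs-4 (rank 5063) and pbs-3 (rank 5763) lay 139, 120 and 134 bp upstream, that of pbs-3 within the annotated 3′ UTR of ulp-2, a SUMO protease gene that ends 22 bp before it. No core gene had a summit among the stronger 10% of IDR peaks. The share over all genes with a promoter summit was 14.4%, too small to set 7 core genes apart.

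In the base, 4 of the 6 ATPase genes and 1 of the 4 genes for scaffolds and ubiquitin receptors had a summit, where all protein-coding genes had 14.7%. These subgroups are too small to be told apart. At rpt-2 the summit (rank 676, 148 bp upstream; chromosome V, 6017708 to 6017929) had rank 653 in replicate 1 and 757 in replicate 2. It was the strongest of the base in the pooled list and in each replicate, and lay within the noncoding RNA gene F29G9.10. A pair of summits lay at rpt-6, the only member with more than 1, at 735 bp upstream (rank 2564) and 246 bp upstream (rank 3290). The farther of them lay nearer to the start of the divergent gene his-72, which encodes a histone variant. In the replicate lists the stronger rpt-6 summit was the near one in replicate 1 (rank 2312) and the far one in replicate 2 (rank 2544). The summits at rpt-3 (rank 3829, 673 bp upstream, in the 3′ UTR of chtb-2) and rpt-1 (rank 4251, 125 bp upstream) were weaker. The scaffold gene rpn-2 had a summit 346 bp upstream (rank 1790), and the replicates placed it at 1764 and 1817. The other scaffold gene, rpn-1, and the ubiquitin receptor genes rpn-10 and rpn-13 had none in the IDR list. With all pooled peaks before the threshold, rpn-1 and rpn-10 had a summit.

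The lid held the second strongest member peak, at rpn-3 (rank 131, 200 bp upstream; chromosome III, 8447022 to 8447299), with rank 121 in replicate 1 and 137 in replicate 2. This summit lay 244 bp upstream of the divergent gene hsp-110, a chaperone gene. At rpn-11, which encodes the deubiquitinating enzyme of the lid, the summit lay 15 bp upstream of the start (rank 758), and the replicates placed it at 689 and 838. No other member had its summit nearer to its own start. At rpn-5 (rank 2636, 54 bp upstream), which is divergent from the cohesin gene scc-1, the ranks were 2454 and 3002. Weaker summits were at rpn-12 (rank 5112, 148 bp upstream) and rpn-7 (rank 5814, 388 bp upstream), and the latter lay 28 bp upstream of the divergent gene F49C12.9. The replicates differed at rpn-7, with rank 9169 in replicate 1 and 5082 in replicate 2. The genes rpn-6.1, rpn-6.2, rpn-8 and rpn-9 had no summit in the IDR list.

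The CDC-48 ATPase genes held the strongest and the weakest IDR summit of the members. At cdc-48.1 the summit lay 161 bp upstream (chromosome II, 10563435 to 10563733) at rank 10, with a pooled signal of 1807 where the median over IDR peaks was 162, and it was not shared with another protein-coding gene. Its rank was 4 in replicate 1 and 15 in replicate 2, and the summit positions were 162 and 157 bp upstream. At cdc-48.2 the summit had rank 5860 and a pooled signal of 85, and rank 5180 in replicate 1 and 6680 in replicate 2. It lay 996 bp upstream, at the outer edge of the window, and nearer to the divergent gene ctns-1, a cystinosin homologue gene. Without replicate 1, cdc-48.2 was not counted, as its rank in replicate 2 fell past the 6283 strongest peaks used there. It was also not counted with the shorter window of 500 bp upstream or with the nearest protein-coding gene start only. In each case 1 of the 5 CDC-48 genes kept a summit.

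None of the cofactor genes ufd-1, npl-4.1 and npl-4.2 had a summit in the pooled list or in either replicate. For the NPL-4 genes the sequence limits what can be read from this. Their promoter windows were identical at 1200 of 1201 positions, and 96.9% of the 36-base words in each occur elsewhere in the genome. For the other members this share was 9.35% at cdc-48.1, 2.83% at pas-5 and 0 at the rest, and within the strongest peak it was 0 at cdc-48.1 and 9.14% at pas-5. Read length and the treatment of reads with several matches are not stated, and the part of the repeat in the missing peaks was not tested. The sequence centred 161 bp upstream of each start, with 50 bp on either side (161 bp being the median summit distance of the members), did not differ at any base between the copies (chrII:5631140-5631240 and chrII:5622678-5622778, plus strand). Capitals again mark TAAT, ATCAT and GTCAT on either strand.
npl-4.1: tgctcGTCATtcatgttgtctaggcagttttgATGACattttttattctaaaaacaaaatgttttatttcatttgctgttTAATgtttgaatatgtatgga
npl-4.2: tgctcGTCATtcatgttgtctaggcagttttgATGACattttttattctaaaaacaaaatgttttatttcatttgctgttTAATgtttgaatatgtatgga

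**Figure D2:**
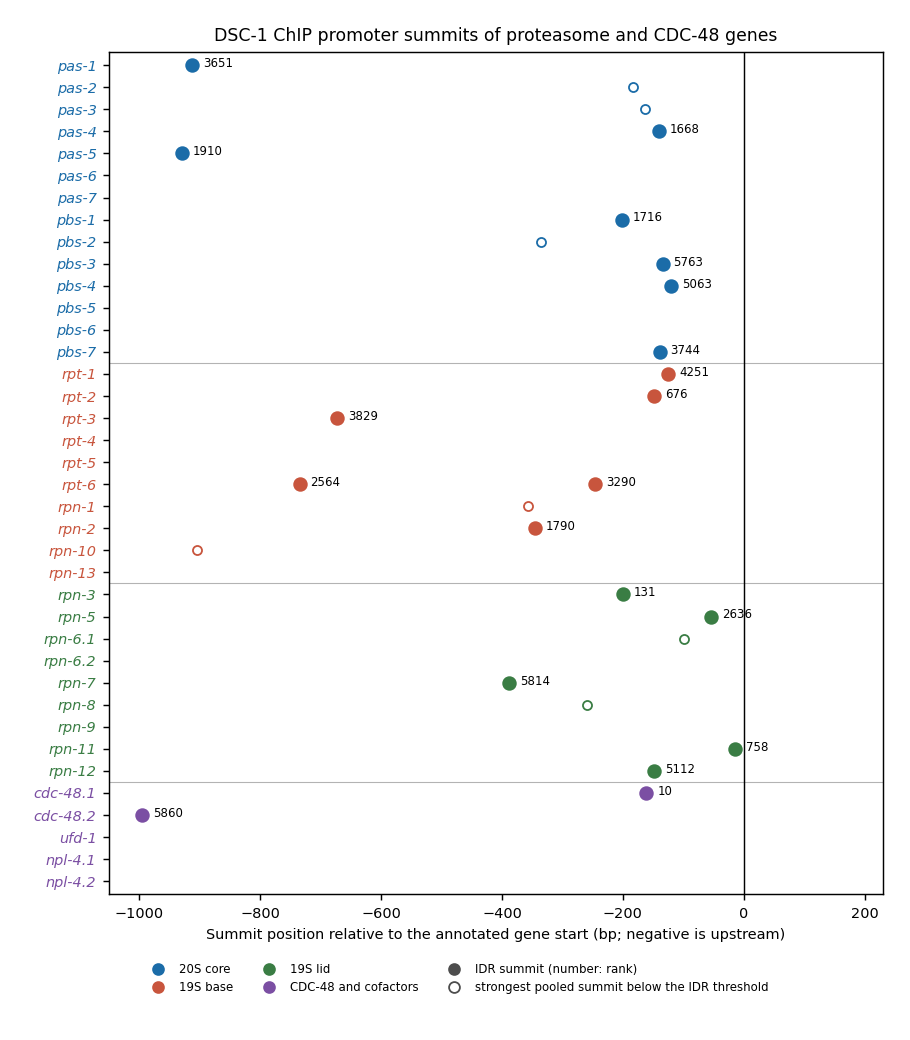
Position of each summit relative to the annotated gene start, in bp, for all 38 genes in the order of the complex. Filled points are IDR summits labelled with their rank and open points the strongest pooled summit of genes without one; most filled points lie within 300 bp of the start, and cdc-48.1 carries rank 10.

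The members' summits lay at distances from 15 to 996 bp upstream of the start. The median distance of the strongest summit was 161 bp upstream, against 248 bp for the 2944 protein-coding genes with a promoter summit, and 12 of 19 (63.2%) lay within the 300 bp before the start, against 52.6% of those genes. None of the 19 lay downstream of the start, and the share over all those genes was 5.67%, too small to set 19 members apart. Others, 5 of 19 (26.3%, against 24.2%), lay more than 500 bp upstream, namely those of pas-1, pas-5, rpt-3, rpt-6 and cdc-48.2. The members' peaks were not stronger than other promoter peaks as a set, with a median rank of 2636 against 2654 and with 2 of 19 (10.5%) among the stronger 10% of the list against 14.4%. The widths of their strongest peaks were between 111 and 396 bp, with a median of 396 bp as in the whole list.

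The strongest summit was shared with another protein-coding gene's window at 12 of 19 members (63.2%), against 44.4% of all genes with a promoter summit. It was shared with a divergent gene at 11 of 19 (57.9%), against 41.5% of all genes with a promoter summit. The neighbours of known function included hsp-110 at rpn-3, scc-1 at rpn-5, the clathrin adaptor gene aps-1 at rpt-2 and the RNA polymerase II subunit gene rpb-3 at pas-4. At rpn-12 the summit lay 148 bp from its start and 247 bp from that of rad-23, which encodes a shuttle factor that carries ubiquitinated proteins to the proteasome, with 395 bp between both starts. The remaining partners were K08D12.3 at pbs-1, F39H11.1 at pbs-7, C23G10.7 at rpn-2, F49C12.9 at rpn-7, his-72 at rpt-6 and ctns-1 at cdc-48.2. A summit between divergent genes cannot be told apart by target. With each summit given to the nearest protein-coding gene start only, 15 of 38 members (39.5%) kept one, against 11.4% of all genes. Those lost were pas-1, pas-4, rpn-7 and cdc-48.2. Noncoding genes were left out of this count, so it kept pas-5 and rpt-2, whose summits lay within noncoding RNA genes.

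Among the 19 members without an IDR summit, 7 had a weaker summit in the pooled list and 12 had none there. Of all 19973 protein-coding genes, 6655 had a summit in the pooled list and 2944 in the IDR list. The pooled and replicate lists were made as input for the IDR step and include background regions, so a summit below the IDR threshold may be background. The pooled summits of pas-3 (rank 6297, signal 78.2) and pbs-2 (rank 6317, signal 77.9) fell just short of the last IDR peak, whose signal was 78.38 at rank 6283. At pbs-2, which encodes a beta subunit of the type with the trypsin-like site, the rank was 9059 in replicate 1 and 5891 in replicate 2. Those of rpn-1, rpn-6.1, rpn-10, rpn-8 and pas-2 were weaker, at ranks from 10273 to 26275. The gene rpn-9 stood apart, with a summit at rank 3495 in replicate 1, 242 bp upstream, and none in its window in replicate 2 or in the pooled list. The genes pas-6, pbs-5, pbs-6 and rpt-5 had only summits of rank 9244 or weaker in a replicate list. No summit was present in any of the 3 lists at 7 members, namely pas-7, rpt-4, rpn-13, rpn-6.2, ufd-1, npl-4.1 and npl-4.2, whereas this held for 56.5% of all genes. At rpt-4 an IDR summit at rank 5200 lay 2397 bp downstream of the outer start, inside an intron, and entered the promoter window when every annotated transcript start was used.

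Some members lie close behind another gene on the same strand, as in operons, where a gene can be transcribed from the promoter of the first gene. A gap of at most 500 bp to such a gene was present at 9 of 38 members (23.7%, against 20.9% of all genes). Of these, pas-1, pbs-3, rpt-3 and rpn-11 had a summit in their promoter window and pbs-5, rpn-10, rpn-13, rpn-6.2 and ufd-1 had none. The summit of pas-1 also lay 227 bp upstream of rpoa-12, the gene before it, and nearer to that start. Counting a summit at the first gene of the chain as well left the number of members at 19, while it raised the share of all genes from 14.7% to 19.4%. This way of counting was added after the data were examined.

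**Figure D3:**
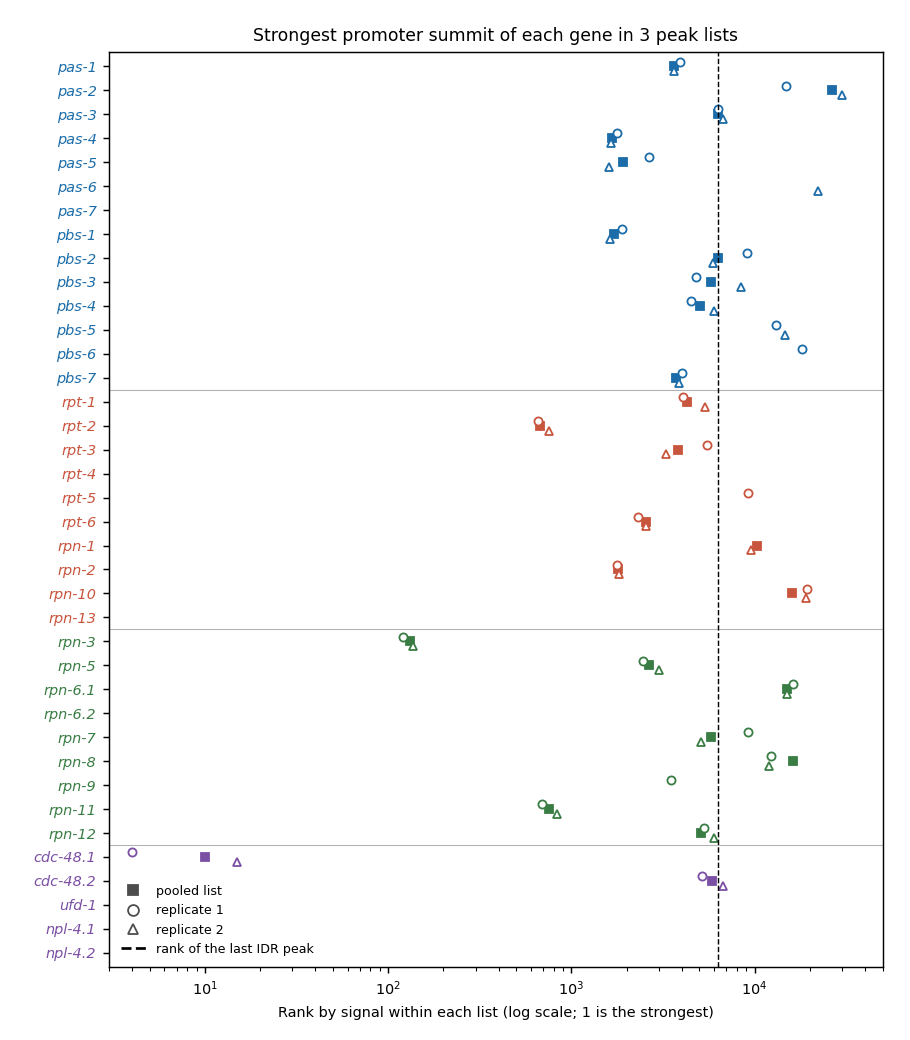
Rank by signal of the strongest promoter summit of each gene in the pooled list, replicate 1 and replicate 2, on a log scale; a missing symbol is a list with no summit in the window. The dashed line is the last IDR peak at rank 6283; 16 of the 19 genes with an IDR summit have all 3 symbols on its stronger side, and rpn-9 has a symbol for replicate 1 only.

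The replicates gave the same picture for most members. All 19 members with an IDR summit had a summit in the window in each full replicate list, and 16 had it among the 6283 strongest peaks of both. The exceptions were rpn-7 in replicate 1, and pbs-3 (rank 4770 in replicate 1 and 8409 in replicate 2) and cdc-48.2 in replicate 2. Over all genes with an IDR promoter summit, 84.6% met the same condition. The 6283 strongest peaks of replicate 1 alone gave 19 members (50%, against 15% of all genes). Those of replicate 2 alone gave 18 (47.4%, against 14.3%). This cut was set by the length of the IDR list, not by the replicates. The IDR list was built from these replicates, so they are not independent of it.

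The words of SKN-1 were frequent around the members' summits, and the homeodomain core word TAAT was near its background share. ATCAT or GTCAT, on either strand, was present within 50 bp of 13 of 20 member summits (65%), against 26.2% of 2429 promoter summits and 33.3% of all IDR summits. The median GC content of these windows was 43.6% for the members and 44.6% for all promoter summits. Beside the member summits, the words were present in 7 of 20 windows 300 bp upstream (35%) and in 10 of 20 windows 300 bp downstream (50%). The share beside all promoter summits was not computed, so these counts have no matching background. In equally wide windows centred 161 bp upstream of the start, the words were present at 11 of 19 members with a summit (57.9%) and 9 of 19 without (47.4%). The share over all genes was 33.7%. The sequence of cdc-48.1 shown above holds both words overlapping, and that of rpn-3 holds neither. TAAT was present at 10 of 20 member summits (50%), against 49.3% of all promoter summits and 57.1% of all IDR summits. TAATTA was present at 0 of 20, against 3.91% and 4.54%, shares too low to read a difference from 20 summits. TATAAA was present at 3 of 20 (15%) against 6.67% of all promoter summits. Over the whole promoter window TAAT was present in all 38 genes and ATCAT or GTCAT in all 38, as in 100% and 98.9% of all genes. TAATTA was present in 10 of 19 windows with a summit (52.6%), 7 of 19 without (36.8%) and 47.3% of all genes.

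Other genes of the ubiquitin pathway, chosen as a list of 59 of which 58 were in the annotation, had a promoter summit at 25 of 58 genes (43.1%, 30.2 to 56.8), against 14.7% of all protein-coding genes. Like the members, this list was chosen with earlier results of these data known. By class the genes with a summit were 2 of 3 genes for ubiquitin and its activating enzyme, 6 of 14 for conjugating enzymes, 8 of 18 for ligases and their subunits, 4 of 8 for deubiquitinases, 3 of 8 for CDC-48 adaptors and 2 of 6 for shuttle and further proteasome factors. The strongest summits were at the ligase genes eel-1 (rank 127, 520 bp upstream) and wwp-1 (rank 361, 243 bp upstream). They were followed by the conjugating enzyme gene let-70 (rank 465, 841 bp upstream, shared with klc-1), the ubiquitin gene ubq-2 (rank 467, 482 bp upstream, shared with frg-1) and the CDC-48 adaptor gene ufd-3 (rank 607, 133 bp upstream). The let-70 and ubq-2 summits lay nearer to klc-1 (641 bp) and frg-1 (157 bp). With the nearest protein-coding gene start only, 20 of 58 pathway genes (34.5%) kept a summit, against 11.4% of all genes. The regulator gene skn-1 had no promoter summit, nor had png-1 and ddi-1, whose products process the proteasome-regulating form of SKN-1.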

How the data were processed

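Chromatin immunoprecipitation was sequenced in 2 biological replicates of 1 group. The authors deposited peak lists on ce11 for replicate 1 (26482 peaks), replicate 2 (30000), the pooled replicates (30000) and the pooled peaks past their IDR threshold (6283), which were the 6283 pooled peaks of highest signal. The first 3 lists hold background regions by design, as input for IDR. Per the deposited file listing, each peak has a signal value of the authors' peak caller, a deposited −log10 q-value, which was not used, and a summit offset in bp. The caller, aligner and IDR cut used by the authors are not stated, nor is the scale of the signal, so it only ranked peaks within a list. Read depth is unknown. The ce10 lists were not used here.

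Gene models were Ensembl release 115 for WBcel235, with the outermost start of each gene, and sequence came from the RefSeq copy of that assembly. Summits were counted in promoter windows with Python 3.11.15 and SciPy 1.17.1, and figures were drawn with matplotlib 3.10.9. Alternatives changed the peak list, window, start and replicate. A check with simulated summits at known offsets covered the offset arithmetic and window limits only, not the reading or counting of peaks. There was no comparison between conditions and no test. All members with a promoter summit, the genes that share it, members without one and the 5 pathway genes with the strongest summits are named. The members, lists and words were chosen with earlier results of these data known.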

Additional observations from a re-analysis of the deposited data

How the results depend on the processing

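Of 10 other ways of counting, 1 of them (the same-strand chain) added after the data were examined, most left the counts within 1.5 times. With the stronger 50% of IDR peaks, which holds fewer peaks by construction, the counts were 10 of 38 members, 3 of 14 core, 3 of 10 base, 3 of 9 lid, 1 of 5 CDC-48 and 16 of 58 other ubiquitin pathway genes. With the window of 500 bp upstream to 100 bp downstream, 1 of 5 CDC-48 genes and 16 of 58 pathway genes had a summit. With the nearest protein-coding gene start only, 1 of 5 CDC-48 genes had one. In each the CDC-48 gene lost was cdc-48.2. Leaving out either replicate gave 18 to 19 members, 7 to 7 core, 5 to 5 base, 5 to 5 lid, 1 to 2 CDC-48 and 21 to 26 pathway genes. The peaks counted were then the 6283 strongest of the other replicate. Across all settings the members' count ran from 10 to 26. No paired analysis was possible because there was 1 group. Depth is unknown, so a gene without a summit is not shown to lack binding. Many nematode transcripts are trans-spliced, so transcription may begin upstream of an annotated start.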

Other observations

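A longer form of the SKN-1 word recurred at the members. GATGACAA, on either strand, was present in the promoter windows of 13 of 38 members (34.2%), against 6.16% of all protein-coding genes. It was present within 50 bp of 5 of 20 member summits (25%), those of cdc-48.1, rpn-2, rpn-7, rpn-11 and rpt-2, against 0.618% of all promoter summits. Of the 13 genes, 9 had an IDR summit and 4 had none, namely pas-2, pas-6, pbs-6 and rpn-1. This word was picked among 7 overlapping words compared after the summit sequences had been read, so the shares are a description and were not tested. The other 6 words gave between 13.2% and 78.9% of members, and their shares over all genes ran from 0.996% to 36.3%.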
